A study of Mus musculus with 2 samples.

Results

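The genes described here encode subunits and assembly factors of the mitochondrial oxidative phosphorylation system. They were taken from the counts of single-cell RNA sequencing of mouse eyecups at E13.5. Members were the rows whose symbol begins with mt-, Nduf, Cox4 to Cox8, Atp5 or Uqcr and that held at least 100 UMIs (unique molecular identifiers, each counting an RNA molecule) summed over both libraries. Of the rows that matched, 102 in all, 97 were members, of 21916 genes with at least 1 UMI. The 13 mitochondrial members are all protein-coding genes of the mitochondrial genome, and the other 84 lie on nuclear chromosomes. Cox6a2 and Cox7b2, with 36 and 11 UMIs, and 3 rows with 0 UMIs (Cox8b, Cox8c and a second Atp5o row) stayed below the minimum, and Cox7a1, with 273 UMIs, was the lowest member above it. By role, complex I had 7 mitochondrial and 36 nuclear subunits and 8 assembly factors, complex III had 1 and 8 subunits, complex IV 3 and 16, and complex V 2 and 16.

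There was 1 control and 1 DKO (double knockout) library. The control eyecups were Six3+/-;Six6+/-, so these cells carried a null allele of each gene too. The DKO eyecups were Six3F/F;Six6-/-;α-Cre, in which Six6 was deleted in the germline and Six3 by a Cre that acts in the peripheral retina, so central DKO cells kept Six3. A Cre feature is not among the counts used here. In naive-like progenitors Six6 was at 367 CPM (UMIs per 1000000 UMIs) in the control and 46.7 CPM in the DKO library, and Six3 at 302 and 240 CPM. Each genotype had a single library, so no test between genotypes was possible and no p-value is given. All intervals are 95% intervals for counting error only and do not cover the variation between embryos or dissections. The libraries held 85589515 and 85173276 UMIs, and 9822 control and 12146 DKO cells passed the filters of the study, with medians of 7620 and 5879 UMIs per cell. The libraries shared 20 barcodes among the cells kept.

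Cells were clustered without the 97 genes, so none of them shaped the cell groups. The groups were naive-like progenitors (3726 control and 3166 DKO cells), neurogenic-like progenitors (1419 and 1422), ganglion neuron-like cells (1045 and 2366), pigment epithelium-like cells (546 and 901), lens-like cells (214 and 257), a gamma crystallin cluster (202 and 148) and red cell-like cells (1174 and 614). The leading genes of the pigment epithelium-like cells included Dct, Trpm1 and Gja1, which the study used as ciliary margin markers. This group may therefore hold ciliary margin cells too, and their proportion in each library was not tested. The study reported an expanded ciliary margin population in DKO retinas, with in situ hybridization for Gja1 and Dct among its evidence. Ratios between libraries in this group may thus compare unlike mixtures of cells. Smaller groups were amacrine or horizontal neuron-like, photoreceptor-like and macrophage-like cells. Clusters 2 and 14 held cells with few UMIs (1214 control and 1403 DKO cells, medians of 964 and 971 UMIs) and are called low-RNA cells. Clusters 10 (927 DKO cells, led by Tbr1 and Eomes) and 13 (442 DKO and 2 control cells, led by Fabp7) stayed unnamed.

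Oxidative phosphorylation moves electrons from NADH through complexes I, III and IV to oxygen, pumping protons across the inner mitochondrial membrane, and complex V (the ATP synthase) uses the proton gradient to make ATP. The mitochondrial genome encodes membrane subunits of complexes I, III, IV and V, among them cytochrome b and the oxygen-binding subunit of complex IV, and all other subunits, core ones included, are made from nuclear genes and imported. Mitochondrial genes are transcribed as long RNAs from both strands and then cut into individual mRNAs. Red cells lose their mitochondria late in maturation, and lens fibre cells clear theirs as the lens becomes transparent.

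The layout of the mitochondrial genes lets neighbouring genes share bases, so the longest overlap is shown. On GRCm38 (mm10), mt-Atp8 spans chrM:7766-7969 and mt-Atp6 spans chrM:7927-8607, both on the plus strand of the reference and both encoding subunits of complex V. The last 43 bases of mt-Atp8, at chrM:7927-7969, are also the first bases of mt-Atp6. In capitals are the start codon of mt-Atp6 and the stop codon of mt-Atp8.
mt-Atp8 and mt-Atp6: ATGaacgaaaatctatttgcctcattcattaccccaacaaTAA
A further overlap of 7 bases joins mt-Nd4l (chrM:9877-10173) and mt-Nd4 (chrM:10167-11544). The gene mt-Nd6 (chrM:13552-14070) lies on the minus strand and overlaps the end of mt-Nd5 (chrM:11742-13565) by 14 bases. Whether the overlaps moved UMIs between these genes was not tested.

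Some of the nuclear members hold promoter letters that are known from respiratory genes. RefSeq promoter windows on GRCm38.p6, from 250 bases before to 50 bases after the start, were matched for 69 of the 84 nuclear members. The letters GCGCATGCG, the core of the site of NRF1 (nuclear respiratory factor 1), stood on either strand in 10 of these windows (14.5%), against 1.81% of all 27025 windows and 3.78% of the 10357 windows of genes expressed in these cells. The letters are nearly the same on both strands, so a site usually matches on both with an overlap. The letters AAGATGGCG of YY1 stood in 7 windows (10.1%, against 1.49% and 3.22%), and CCGGAAGTG of ETS factors in 2 (2.9%, against 2.06% and 4.38%). At least 1 of these was present in 27.5% of the members' windows, 5.12% of all windows and 10.8% of those of expressed genes, and 0 members held more than 1 of the 3. Stretches of 60 bases before the start are shown for 5 members of complexes I, IV and V with NRF1 letters on the gene's strand, in capitals.
Atp5g2, chr15:102671055-102671114, minus strand: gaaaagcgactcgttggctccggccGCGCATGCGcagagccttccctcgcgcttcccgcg
Atp5k, chr5:108434415-108434474, minus strand: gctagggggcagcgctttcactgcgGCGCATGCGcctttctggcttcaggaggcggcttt
Cox6a1, chr5:115349086-115349145, minus strand: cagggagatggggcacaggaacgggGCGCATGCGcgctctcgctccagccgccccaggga
Ndufa11, chr17:56717677-56717736, plus strand: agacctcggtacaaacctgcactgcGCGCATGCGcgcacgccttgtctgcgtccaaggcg
Ndufaf4, chr4:24897945-24898004, plus strand: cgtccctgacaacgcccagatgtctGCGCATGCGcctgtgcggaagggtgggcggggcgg
A match is a description of the letters in the window. The data hold no measurement of factor binding, and windows without these letters give no information on the factors.

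The summed level of the mitochondrial members differed between cell groups far more than the summed level of the nuclear members. In the control library 6.25% of the UMIs of naive-like progenitors came from the 13 mitochondrial genes, and the 84 nuclear genes gave 1.91%. Neurogenic-like progenitors were close to these values, at 5.99% and 1.91%. Pigment epithelium-like cells were at 6.13% and 2.07%, and macrophage-like cells at 6.10% and 1.90%. Ganglion neuron-like cells had a lower mitochondrial share, 5.22%, beside a nuclear share of 2.06%. Lens-like cells were at 5.03% and 2.13%. Among the groups named so far the mitochondrial share thus covered a range from 5.03% to 6.25%, and the nuclear share from 1.90% to 2.13%. The groups set apart were the gamma crystallin cluster, at 2.73% and 2.09%, the low-RNA cells, at 1.43% and 2.42%, and the red cell-like cells, at 0.67% and 0.493%. Of the red clusters, 7 and 11 had mitochondrial shares of 0.181% and 0.591%, and cluster 20, with 97 of the 1174 cells and 74.2% called doublets, had 3.39%.

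The spread from cell to cell showed the same separation. The middle 50% of naive-like control cells lay between 5.53% and 6.98% mitochondrial UMIs, with a median of 6.19%. The median was 5.16% in ganglion neuron-like and 5.01% in lens-like control cells, 0.573% in the gamma crystallin cluster, 0.488% in low-RNA cells and 0.134% in red cell-like cells. The gamma crystallin cluster was spread widely: 56.9% of its control cells lay under 1% and 22.3% at 4% or more. Macrophage-like cells were spread too, with 18.2% of 55 control cells under 1%. The upper end of every group is bounded by the filter, which removed 111 control and 124 DKO cells with 20% or more mitochondrial UMIs.

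**Figure D1:**
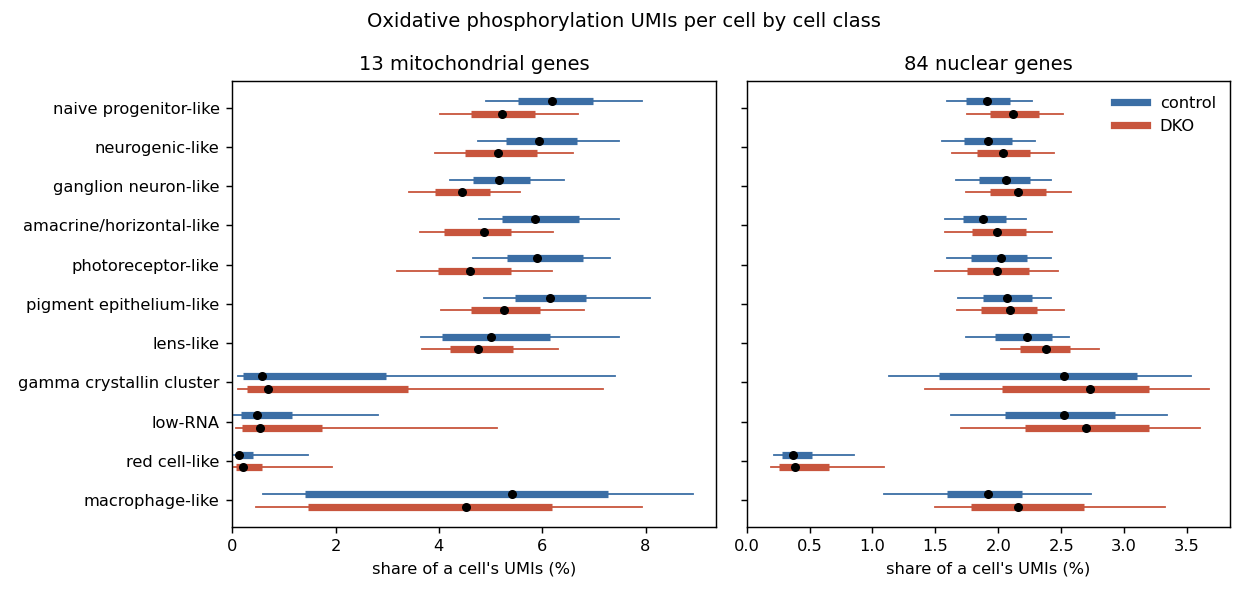
Share of mitochondrial (left) and nuclear (right) oxidative phosphorylation UMIs in single cells by cell group, as percent of all UMIs of a cell, for the control (blue) and DKO (red) library. Thick bars span the middle 50% of cells, points mark the medians, and thin lines join the lowest and highest deciles. In naive-like progenitors the thick control bar, 5.53% to 6.98%, lies to the right of the DKO median of 5.22%, and red cell-like and low-RNA cells lie near 0 for the mitochondrial share.

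In most retinal groups the mitochondrial share was lower in the DKO library and the nuclear share higher. In naive-like progenitors the mitochondrial share was 6.25% in the control and 5.23% in the DKO library, 0.837-fold or -0.26 on the log2 scale (interval -0.26 to -0.25). The nuclear share was 1.91% and 2.13%, a log2 ratio of 0.16 (0.15 to 0.16). The middle 50% of DKO cells, 4.63% to 5.87% mitochondrial UMIs, overlapped that of control cells, 5.53% to 6.98%.

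Neurogenic-like progenitors had 5.99% and 5.19% mitochondrial UMIs (log2 ratio -0.21) and 1.91% and 2.04% nuclear ones (0.10). Ganglion neuron-like cells had 5.22% and 4.49% (-0.22) and 2.06% and 2.18% (0.08). Amacrine or horizontal neuron-like and photoreceptor-like cells had mitochondrial log2 ratios of -0.32 and -0.34, with nuclear ones of 0.06 and 0.02. Pigment epithelium-like cells had a mitochondrial ratio of -0.21, and their nuclear shares, 2.07% and 2.09%, were nearly level. Of the 19 clusters with at least 50 cells in each library, 15 had a lower mitochondrial share in the DKO library and 18 a higher nuclear share.

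In naive-like progenitors the differences kept their direction among cells of like depth, with unequal sizes. Naive-like progenitors with 8000 to 16000 UMIs had 6.16% and 5.18% mitochondrial UMIs (log2 ratio -0.25) and 1.90% and 2.13% nuclear ones (0.17). Between 4000 and 8000 UMIs the mitochondrial shares were 6.66% and 5.37% (-0.31), and between 16000 and 32000 they were 6.01% and 5.08% (-0.24). The difference was smaller between 2000 and 4000 UMIs, at 6.28% and 5.76% (-0.12), from 135 control and 211 DKO cells. In ganglion neuron-like cells of 2000 to 4000 UMIs (28 and 106 cells) the nuclear shares were level, at 1.75% and 1.74%, while the mitochondrial shares were 5.29% and 4.31%. Other transcripts differed between the libraries in the same cells. Gm42418 and AY036118, which lie in ribosomal RNA gene repeats, were at 2285 and 204 CPM in naive-like control cells and at 1414 and 128 CPM in naive-like DKO cells. The 72 ribosomal protein genes made up 19.7% and 18.2% of UMIs. Their part in the mitochondrial difference was not tested, and genotype and library cannot be told apart.

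**Figure D2:**
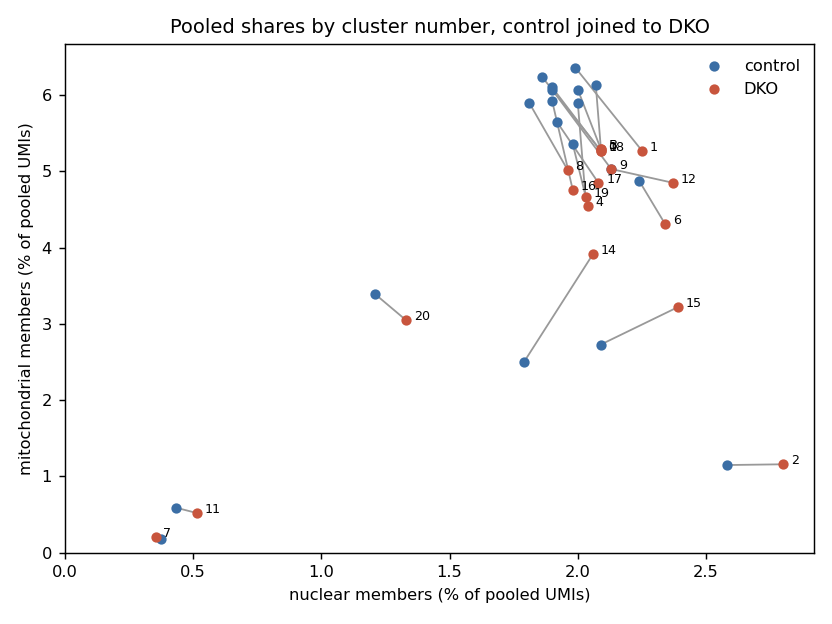
Mitochondrial share (vertical) against nuclear share (horizontal), as percent of all UMIs pooled over the cells of a cluster, in the control (blue) and DKO (red) library, with a line joining the libraries of each of 19 numbered clusters. The retinal clusters sit at the upper right with the DKO point below the control point, red clusters 7 and 11 sit at the lower left, and low-RNA cluster 2 sits at 1.15% and 1.16% mitochondrial with 2.58% and 2.80% nuclear UMIs.

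The mitochondrial genes did not move by equal amounts. In naive-like progenitors 10 of the 13 were lower in the DKO library and 3 higher, with a median log2 ratio of -0.17, and 3 were past 1.2-fold downward. These were mt-Nd3 (a core subunit of complex I), at 713 CPM in the control and 501 CPM in the DKO library, mt-Co3 (a core subunit of complex IV), at 13291 and 10011 CPM, and mt-Atp6 (the proton channel subunit of complex V), at 14239 and 11467 CPM. Their log2 ratios were -0.51 (-0.54 to -0.48), -0.41 (-0.42 to -0.40) and -0.31 (-0.32 to -0.31). The next genes were mt-Co1 (6299 and 5347 CPM, -0.24), mt-Co2 (9053 and 7748 CPM, -0.22) and mt-Cytb, the only mitochondrial subunit of complex III (5018 and 4298 CPM, -0.22).

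The other complex I genes lay nearer to 0. The log2 ratio was -0.17 for mt-Nd2, -0.14 for mt-Nd4 and -0.04 for mt-Nd1, and mt-Atp8, at 116 and 107 CPM, was at -0.11. Slightly above 0 were mt-Nd4l (279 and 283 CPM, 0.02) and mt-Nd5 (878 and 906 CPM, 0.05). The minus-strand gene mt-Nd6 was at 53.0 and 62.3 CPM, with a log2 ratio of 0.23 (0.14 to 0.33). The overlaps given above join mt-Atp8 (-0.11) to mt-Atp6 (-0.31), mt-Nd4l (0.02) to mt-Nd4 (-0.14), and mt-Nd5 (0.05) to mt-Nd6 (0.23).

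Within the mitochondrial UMIs, some genes changed their share in the same direction in the retinal and lens-like groups and others did not. As a share of all mitochondrial UMIs, mt-Co3 was 21.3% in naive-like control and 19.1% in naive-like DKO cells. The pair was 21.6% and 20.1% in neurogenic-like, 22.4% and 20.7% in ganglion neuron-like and 18.9% and 17.6% in lens-like cells. The share of mt-Nd1 was higher in the DKO library in these groups, from 5.76% to 6.69% in naive-like, 5.54% to 6.14% in neurogenic-like, 5.37% to 6.05% in ganglion neuron-like and 5.96% to 6.45% in lens-like cells. By contrast, mt-Atp8 went from 0.209% to 0.221% in neurogenic-like and from 0.256% to 0.247% in lens-like cells. Of the genes with a common direction in these groups, mt-Nd3 went the other way in the gamma crystallin cluster (0.877% and 0.921%), mt-Nd2 in low-RNA cells (6.63% and 6.59%) and mt-Cytb in red cell-like cells (7.2% and 7.04%).

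**Figure D3:**
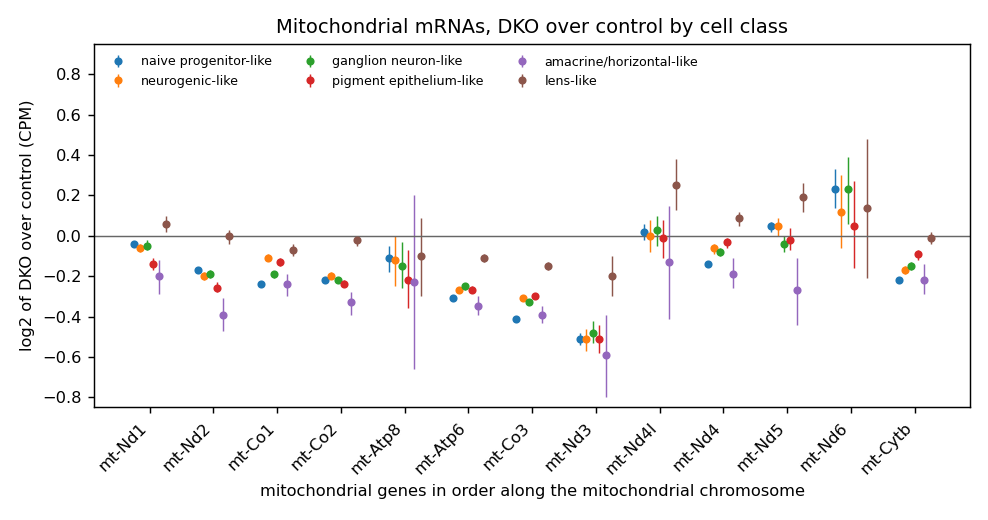
Log2 ratio of DKO over control for the 13 mitochondrial genes in order along the mitochondrial genome, in 6 cell groups set apart by colour, with 95% counting intervals as bars. In naive-like progenitors mt-Nd3 is lowest at -0.51, followed by mt-Co3 at -0.41, and mt-Nd6 is highest at 0.23.

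Among the nuclear members the difference in naive-like progenitors was small and spread over many genes. Of 84, 83 held enough UMIs there, 76 of them were higher in the DKO library, 15 were past 1.2-fold upward and 1 downward. Over all 11684 genes measured, 15.2% were past 1.2-fold upward and 12.1% downward. With the 3 mitochondrial genes this made 19 members past the fold, and 32 when cells were clustered at a resolution of 1. The median log2 ratio was 0.17 for the nuclear members and 0.02 for all genes. By complex the medians were 0.18 for the 36 subunits of complex I, 0.09 for its 8 assembly factors, 0.15 for complex III, 0.16 for complex IV and 0.20 for complex V.

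Of the 3 nuclear subunits with the highest level in each complex, 1 was past 1.2-fold, Uqcrq of complex III. Cox4i1 (subunit 4 of complex IV) was at 852 CPM in the control and 901 CPM in the DKO library (log2 ratio 0.08). Atp5g2, which encodes the subunit c of the membrane ring of the ATP synthase, was at 703 and 822 CPM (0.23). Its paralogs for the same protein, Atp5g1 and Atp5g3, were at 375 and 438 CPM and at 311 and 330 CPM. The catalytic subunit Atp5b (657 and 707 CPM, 0.11) and the subunit Atp5a1 (576 and 570 CPM, -0.02) lay lower in the order of ratios. Uqcrh, the hinge protein of complex III, was at 450 and 483 CPM (0.10), and Uqcrb at 262 and 287 CPM (0.13). In complex IV, Cox8a was at 550 and 614 CPM (0.16) and Cox7c at 546 and 606 CPM (0.15). The accessory subunits Ndufb8 (336 and 376 CPM, 0.16), Ndufb5 (305 and 312 CPM, 0.03) and Ndufb9 (289 and 299 CPM, 0.05) led complex I.

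The largest upward differences among subunits at 50 CPM or more were in accessory subunits, which surround the catalytic core. Ndufb4 (chr16:37647170-37654453, complex I) was at 98.0 CPM in the control and 140 CPM in the DKO library, a log2 ratio of 0.51 (0.44 to 0.58). Ndufa6 (chr15:82350140-82354322, complex I) was at 113 and 153 CPM, a ratio of 0.44 (0.38 to 0.50). Uqcrq (chr11:53427922-53430831, complex III) was at 275 and 367 CPM, a ratio of 0.42 (0.38 to 0.45). In the downward direction Ndufa1 (chrX:37187588-37191163), an accessory subunit of complex I, was at 135 and 105 CPM, a ratio of -0.36 (-0.43 to -0.30). Cox7a2l (chr17:83501918-83517330), known for joining complexes III and IV, was at 437 and 372 CPM, a ratio of -0.23 (-0.27 to -0.20). Cox5b, a nuclear subunit of complex IV, was next, at 283 and 273 CPM (-0.05).

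The ratio of Ndufa6 had the same sign in many groups. Its level was higher in the DKO library in 10 of the 10 non-red groups with enough cells, with log2 ratios from 0.06 in photoreceptor-like cells to 0.53 in low-RNA cells. The pairs were 121 and 171 CPM in neurogenic-like progenitors, 126 and 171 CPM in ganglion neuron-like cells, 144 and 201 CPM in pigment epithelium-like cells and 150 and 203 CPM in lens-like cells. Red cell-like cells went the other way, at 41.8 and 33.5 CPM. A common direction was not particular to Ndufa6. Of the 84 nuclear members, 61 were measured in all 10 groups, and 15 were higher in the DKO library throughout. The share of all genes with a common direction over these groups was not computed. All groups come from the same pair of libraries, so a common direction is not read as a trait of these members. Ndufa12 (chr10:94198720-94221443), another accessory subunit of complex I, was lower in the DKO library in 9 of 10 groups, but by unequal amounts. It was nearly level in naive-like progenitors (212 and 209 CPM) and lower in pigment epithelium-like cells (197 and 146 CPM, -0.43) and in amacrine or horizontal neuron-like cells (186 and 102 CPM, -0.87, interval -1.28 to -0.47). Cox5b was also lower in 9 of 10, with pairs of 342 and 282 CPM in neurogenic-like progenitors and 329 and 265 CPM in lens-like cells.

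**Figure D4:**
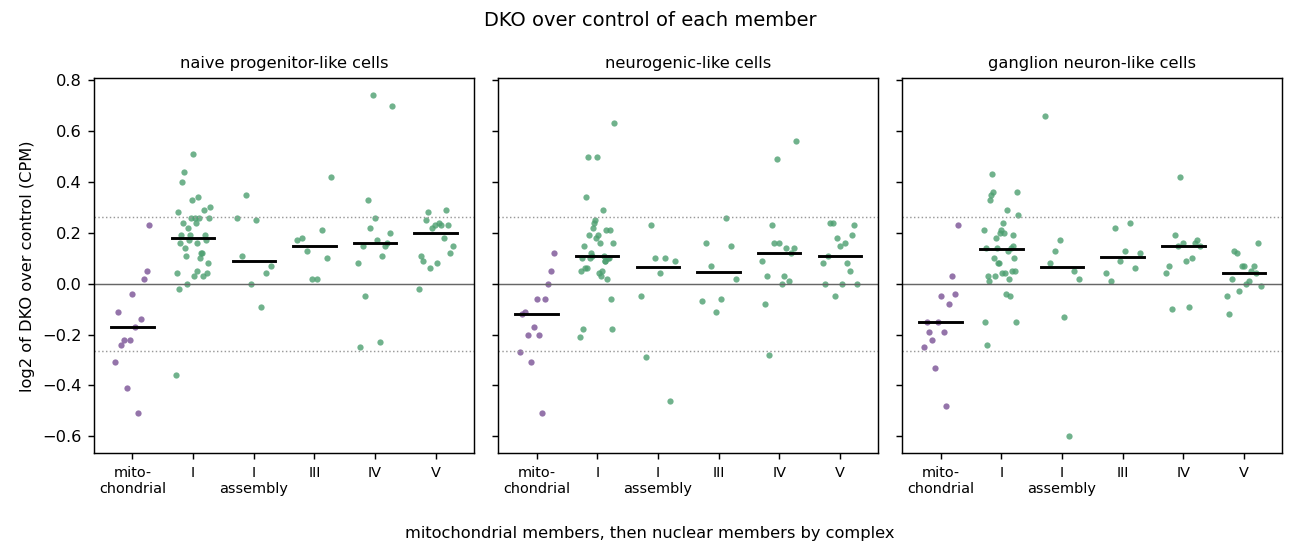
Log2 ratio of DKO over control for each member measured (points), mitochondrial and then nuclear by complex, in naive-like, neurogenic-like and ganglion neuron-like cells, with medians as black lines and 1.2-fold as dotted lines. In naive-like progenitors 76 of 83 nuclear members lie above 0 around a median of 0.17, and 10 of 13 mitochondrial members lie below 0.

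In neurogenic-like progenitors 66 of 82 nuclear members were higher in the DKO library, with a median log2 ratio of 0.10 against 0.01 over all genes. Past 1.2-fold were 7 upward and 3 downward, where 18.3% and 14.8% of the 9511 genes were past it. Ndufv3 (66.3 and 102 CPM, 0.63) was the highest, followed by Ndufb4 (84.3 and 119 CPM) and Ndufa6, both at 0.50. The assembly factor Ndufaf7 was the lowest, at -0.46, and at 50 CPM or more the lowest were Ndufaf2 (76.3 and 62.4 CPM, -0.29), Cox5b (-0.28) and Ndufa1 (122 and 105 CPM, -0.21). Of the mitochondrial genes 3 were past the fold downward, and mt-Nd3 was again lowest, at 645 and 452 CPM (-0.51).

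In ganglion neuron-like cells 66 of 80 nuclear members were higher in the DKO library, with a median of 0.09 against 0.04 over all genes. Past 1.2-fold were 9 upward and 1 downward, where 22.2% and 13.1% of the 10420 genes were. Beside Ndufa6 these included Ndufa7 (186 and 240 CPM, 0.36) and Ndufv2, a subunit of the NADH-oxidizing module of complex I (125 and 160 CPM, 0.36). At 50 CPM or more the lowest were Ndufa12 (148 and 125 CPM, -0.24), Ndufa10 (156 and 140 CPM, -0.15) and Ndufv1 (104 and 94.0 CPM, -0.15). Of the 13 mitochondrial genes 11 were lower, and mt-Nd3 (541 and 389 CPM) and mt-Co3 (11674 and 9301 CPM) were past the fold. Cluster 17 of these cells consisted mostly of called doublets (91.5% in the control and 87.5% in the DKO library). It held 82 of 1045 control and 232 of 2366 DKO cells, and its mitochondrial log2 ratio was -0.22, the same as the group's.

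Between cell groups of the control library, ganglion neuron-like cells had lower mitochondrial and about equal nuclear levels compared with naive-like progenitors. All 13 mitochondrial genes were lower, with a median log2 difference of -0.25 and a range from -0.44 (mt-Nd2) to -0.07 (mt-Co1). The 83 nuclear members had a median of 0.08, with 0 past 2-fold upward and 5 downward, where 14.9% and 18.4% of 11375 genes were past 2-fold. Among those at 50 CPM or more in either group, Cox6a1 was 0.59 higher (427 against 284 CPM) and Ndufv3 0.59 higher (130 against 86.8 CPM), and Ndufb2 was 0.53 higher (123 against 84.8 CPM). Atp5g2 was 0.60 lower on the log2 scale (462 against 703 CPM) while Atp5g3 stood at 427 against 311 CPM, so the 3 genes for subunit c were in another proportion in the neurons. Of the 8 assembly factors of complex I, 5 were lower and 3 higher in the neurons, with a median of -0.25, a range from -1.06 (Ndufaf1) to 0.80 (Ndufaf3) and 1 past 2-fold downward. Ndufaf8 was at 31.3 against 62.2 CPM and Ndufaf2 at 51.7 against 86.1 CPM.

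Cox4i2 (chr2:152754173-152765037), the alternative form of subunit 4, had the lowest ratio of ganglion neuron-like to naive-like control cells of the nuclear members measured, -3.40 on the log2 scale. In the control library it was at 37.9 CPM in naive-like progenitors (35.9 to 40.0), 10.8 CPM in neurogenic-like progenitors and 3.60 CPM in ganglion neuron-like cells (2.49 to 5.03). The DKO library gave 32.0, 10.2 and 3.51 CPM. The intervals of the 3 groups did not overlap in either library. Cox4i1 was between 852 and 1076 CPM in the same groups and libraries. Ndufa4l2 (chr10:127514967-127517154), a paralog of the complex IV subunit Ndufa4 known as a hypoxia-induced gene, followed a like order, at 17.6, 11.5 and 3.39 CPM in the control and 28.6, 16.8 and 3.67 CPM in the DKO library. Ndufa4 itself was at 464, 477 and 639 CPM in the control library.

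Within the DKO naive-like progenitors both genes differed by Six3 level. DKO cells had been clustered alone, and 8 of 28 subclusters, with 1049 naive-like cells, held Six3 under 50% of the control level (98 CPM, against 321 CPM in the other 2117 DKO cells). Ndufa4l2 was at 5.88 CPM in Six3-low cells and 41.7 CPM in the other DKO cells, a log2 difference of -2.82 (-3.23 to -2.45). Cox4i2 was at 8.29 and 45.6 CPM, a difference of -2.46 (-2.80 to -2.14). Control cells lay between, at 17.6 and 37.9 CPM. Over the 83 nuclear members the median was 0.03, and the subunits of complex I ranged from -0.25 to 0.25, those of complex III from -0.05 to 0.10 and those of complex V from -0.07 to 0.18. Past 1.2-fold were 0 of the 83 upward and these 2 downward, where 1065 and 1683 of 10441 genes were. The summed shares of Six3-low and other DKO cells were close, at 5.36% and 5.16% mitochondrial and 2.16% and 2.12% nuclear UMIs, and both were apart from the control values of 6.25% and 1.91%. Six3 level and position in the retina cannot be told apart here, and cells of 1 library are not replicates.

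Cox6b2 (chr7:4751792-4753094), known as the testis form of subunit 6b of complex IV, was the nuclear member with the highest DKO over control ratio in naive-like progenitors, at 15.3 and 25.5 CPM (log2 ratio 0.74, 0.58 to 0.90). It was at 38.6 and 64.1 CPM in pigment epithelium-like cells (0.73) and 18.5 and 37.9 CPM in lens-like cells (1.04, 0.61 to 1.47). In ganglion neuron-like cells it was low, at 5.72 and 7.63 CPM, and the interval of the ratio, -0.05 to 0.90, included 0. Cox7a1, the muscle form of subunit 7a, stayed between 1.02 and 3.81 CPM in the naive-like, neurogenic-like and ganglion neuron-like cells, and Cox8c was at 0 UMIs in both libraries.

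**Figure D5:**
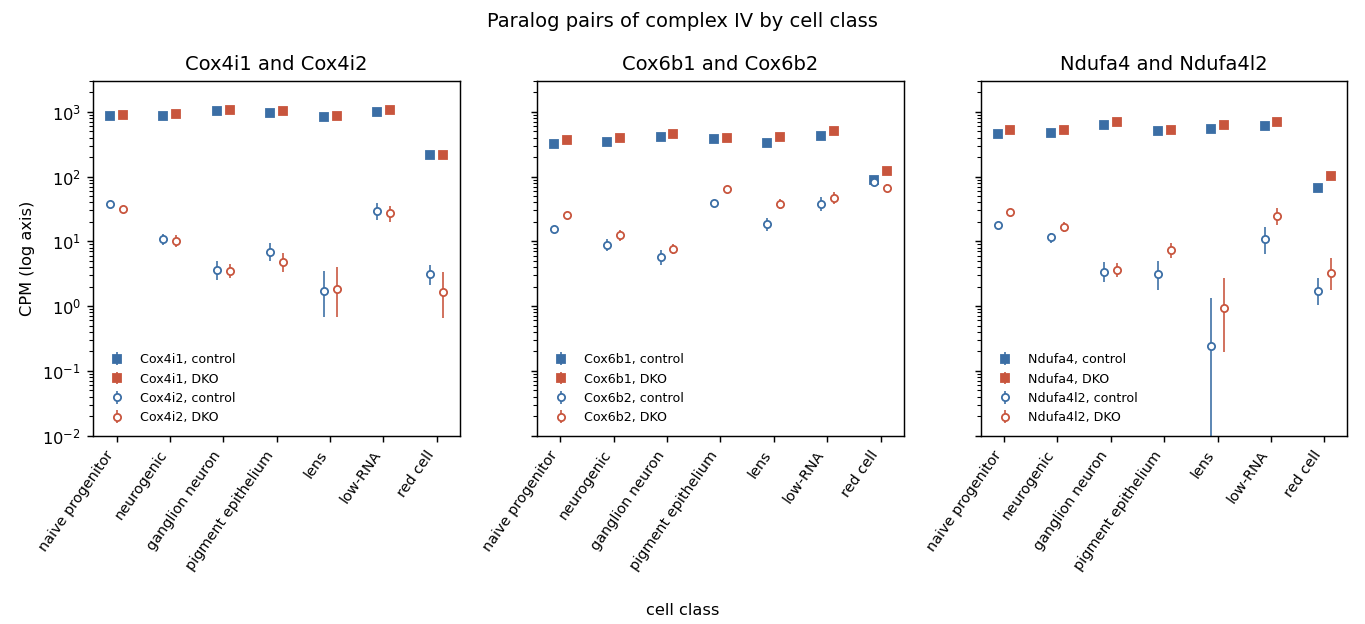
Levels in CPM on a log axis of Cox4i1 with Cox4i2, Cox6b1 with Cox6b2, and Ndufa4 with Ndufa4l2 by cell group, for the control (blue) and DKO (red) library, with 95% counting intervals as bars, cut at the lower edge of the axis. Cox4i2 runs from 37.9 CPM in naive-like progenitors to 3.60 CPM in ganglion neuron-like control cells, and Cox6b2 reaches 83.4 CPM in red cell-like control cells.

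Lens-like cells differed from the retinal groups in single subunits. Ndufa1 was at 552 CPM (530 to 575) in the control lens-like cells, 2.03 higher on the log2 scale than in naive-like progenitors, and at 1008 CPM (974 to 1043) in the DKO lens-like cells. The log2 ratio of DKO over control was 0.87 (0.79 to 0.95), in the opposite direction to that in naive-like progenitors. Lens-like cells had medians of 18236 UMIs in the control and 10187 UMIs in the DKO library, and Ndufa1 was not compared at like depth. The gamma crystallin cluster had 433 and 719 CPM of Ndufa1. Ndufc1, another complex I subunit, was at 322 and 346 CPM in lens-like cells, against 168 CPM in naive-like control cells, and Ndufv3 was at 141 and 147 CPM, against 86.8 CPM. The lowest ratios of lens-like to naive-like control cells, at 50 CPM or more in either, were those of Ndufaf4 (-1.19), Ndufaf2 (-0.73) and Cox7a2l (-0.44). Ndufa4l2 was nearly absent, with 1 UMI in the control and 3 in the DKO lens-like cells. Over the 83 nuclear members the median log2 difference from naive-like control cells was 0.13, and 0.33 when mitochondrial, hemoglobin and crystallin UMIs were left out of the totals. Past 2-fold were 1 upward and 3 downward, where 5.84% and 22.9% of 10987 genes were.

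Crystallins made up 12.6% of the control and 4.81% of the DKO UMIs of lens-like cells, and the median log2 ratio of DKO over control over all genes was 0.17. The nuclear members, with a median of 0.10, lay below this shift. Of 78, 14 were past 1.2-fold upward and 2 downward, where 36.6% and 8.9% of 6740 genes were. Leaving mitochondrial, hemoglobin and crystallin UMIs out of the totals gave nuclear shares of 2.61% and 2.63%. After Ndufa1, the highest ratios at 50 CPM or more were those of Atp5g2 (577 and 795 CPM, 0.46) and Ndufa6 (0.43), and low ratios were those of Cox5b (-0.31) and Ndufb9 (271 and 242 CPM, -0.17). Mitochondrial shares were 5.03% and 4.85% (-0.05), and 5.80% and 5.11% (-0.18) with hemoglobin and crystallin UMIs left out of the totals. On the full totals 5 of the 13 genes were higher and 8 lower in the DKO library. In the gamma crystallin cluster the nuclear share was 2.09% and 2.39%, but 3.15% and 2.90% with these UMIs left out, so its direction depended on the total.

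Red cell-like cells had low levels of nearly all members per UMI. Hemoglobins made up 79.7% of their control and 79.6% of their DKO UMIs. Against naive-like control cells the 13 mitochondrial genes had a median log2 difference of -3.36 and the 83 nuclear members of -2.54, but -1.11 and -0.30 with mitochondrial, hemoglobin and crystallin UMIs left out of the totals. On that other total the red clusters went different ways: the nuclear median was -0.64 in cluster 7, 0.33 in cluster 11, with 48 of 83 members above the naive-like level, and 0.00 in cluster 20, and the mitochondrial medians were -2.69, -1.16 and -0.16. Past 2-fold were 77 nuclear members downward and 1 upward, where 95.3% and 1.53% of 10866 genes were. On the other total the median of all genes was -1.03.

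Individual subunits stood out in red cell-like cells. Cox6b2 was the nuclear member past 2-fold upward, at 83.4 CPM (77.9 to 89.2) in the control, against 15.3 CPM in naive-like progenitors, and at 67.7 CPM in the DKO library. It was above the naive-like level in all 3 red clusters of both libraries, with 93.1 and 57.2 CPM in cluster 7, 66.8 and 90.5 CPM in cluster 11 and 53.2 and 43.5 CPM in cluster 20. Atp5j2 (chr5:145183698-145192062), the subunit f of the ATP synthase, was at 539 and 354 CPM in cluster 7, 165 and 192 CPM in cluster 11 and 421 and 343 CPM in cluster 20. In cluster 7 of the control it was 0.76 higher on the log2 scale than in naive-like cells, and in cluster 11 it was at -0.94, or 2.03 on the other total. Over all red cell-like control cells Cox7b, a subunit of complex IV, was at -0.73, or 1.52 on the other total, and the assembly factors Ndufaf4, Ndufaf2 and Ndufaf8 had the lowest ratios, from -3.57 to -3.55, or -1.33 to -1.30.

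The red clusters differed from each other in the mitochondrial share and in the direction between libraries, so the pooled ratio of red cell-like cells (0.15) is not read as a result. The shares were 0.181% and 0.21% in cluster 7 (log2 ratio 0.21), 0.591% and 0.522% in cluster 11 (-0.18), and 3.39% and 3.05% in cluster 20 (-0.15). Cluster 20 held 40.3% and 41.0% hemoglobin UMIs, and 74.2% and 26.8% of its cells were called doublets. The part of doublets in its values was not tested. In the control, mt-Co1 lay nearer to the naive-like level than the median mitochondrial gene in all 3 red clusters, at -4.30 beside -5.36 in cluster 7, -2.40 beside -4.13 in cluster 11 and -0.80 beside -0.89 in cluster 20.

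Low-RNA cells had few mitochondrial UMIs, and in cluster 2, though not in cluster 14, a higher share of nuclear members than naive-like progenitors. The median cell had 5 mitochondrial UMIs in either library, beside 24 control and 27 DKO UMIs of nuclear members. In cluster 14, whose best marker class was ganglion neuron, the median cell had 6 control and 29 DKO mitochondrial UMIs. All 13 mitochondrial genes were lower than in naive-like progenitors, with median log2 differences of -2.12 in the control and -1.52 in the DKO library. By cluster these medians were -2.52 and -2.22 in cluster 2, and -1.26 and -0.49 in cluster 14. With mitochondrial, hemoglobin and crystallin UMIs left out of the totals, 2 of the 13 were above the naive-like level in cluster 14 of the DKO library. Of the 83 nuclear members 76 were higher in the control, with a median of 0.35 where all genes had -0.38. The clusters went different ways, with 77 of 83 higher and a median of 0.44 in cluster 2 and 28 of 83 higher and a median of -0.13 in cluster 14 of the control, which turned to 0.21 with mitochondrial, hemoglobin and crystallin UMIs left out of the totals. Past 2-fold was 1 upward and 0 downward, where 2.07% and 21.9% of 10810 genes were. Among members at 50 CPM or more, Ndufa11 (219 CPM, 0.74 higher), Atp5h (728 CPM, 0.62) and Ndufb3 (160 CPM, 0.61) were furthest above the naive-like level. The assembly factor Ndufaf4, at 58.2 CPM, was furthest below, with a difference of -0.32, followed by Uqcrc1 (108 CPM, 0.00) and Ndufb9 (295 CPM, 0.03).

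Shares of cells with few mitochondrial UMIs among all their UMIs were compared after thinning each cell to 1000 UMIs. This left out 636 control and 731 DKO low-RNA cells with fewer. At most 1% mitochondrial UMIs were found in 76.3% (exact interval 72.6% to 79.7%) of 578 control and 69.6% (66.0% to 73.1%) of 672 DKO low-RNA cells. In naive-like progenitors these were 0.644% and 0.506%, in red cell-like cells 87.9% and 84.3%, and in the gamma crystallin cluster 64.3% and 63.3%. Without thinning 70.9% and 64.9% of the low-RNA cells lay under 1%. Other transcripts of low-RNA control cells moved too. Gm42418 was at 11370 CPM, against 2285 CPM in naive-like cells, the nuclear RNA Malat1 at 5944 against 11737 CPM, and ribosomal protein genes made up 23.6% against 19.7% of UMIs. Their part in the low mitochondrial share was not tested.

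Between libraries, the 2 low-RNA clusters gave different answers. Cluster 2 had 1.15% control and 1.16% DKO mitochondrial UMIs (log2 ratio 0.01, -0.02 to 0.04). Cluster 14 had 2.5% and 3.92% (0.65, 0.61 to 0.69), with 23.3% and 17.4% hemoglobin UMIs and 23.2% and 7.53% called doublets, whose part was not tested. Nuclear shares were 2.58% and 2.80% in cluster 2 and 1.79% and 2.06% in cluster 14. Over both clusters 58 of 77 nuclear members were higher in the DKO library, with a median of 0.12 against 0.06 for all genes. Past 1.2-fold were 16 upward and 3 downward, where 21.9% and 12.2% of 4326 genes were. Ndufa3 (81.4 and 124 CPM, 0.60), Ndufa6 (168 and 243 CPM, 0.53) and Ndufb4 (132 and 182 CPM, 0.46) were highest. Ndufa1 (179 and 132 CPM, -0.44), Ndufv1 (112 and 88.1 CPM, -0.35) and Cox7a2l (501 and 420 CPM, -0.25) were lowest.

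The clusters made up nearly of DKO cells were compared with other DKO cells. Cluster 10 had 4.96% mitochondrial and 1.87% nuclear UMIs, the lowest nuclear share of the retinal DKO groups. Against naive-like DKO cells its nuclear members had a median log2 difference of -0.23, with Cox4i2 at -5.45, and against ganglion neuron-like DKO cells the median was -0.22. Cluster 13 had 5.70% and 2.14%. Its nuclear members had a median of -0.02 against naive-like DKO cells, with Ndufa4l2 at -4.30 (-6.18 to -2.94) from 4 UMIs in the cluster. The ratio of Cox4i2 in cluster 10 rests on few UMIs too. Cells of cluster 10 had a median of 4268 UMIs. In ganglion neuron-like DKO cells the nuclear share was 1.74% at 2000 to 4000 UMIs and 2.15% at 4000 to 8000 UMIs. In naive-like DKO cells it was 2.05% and 2.14%. Cluster 10 was not compared at like depth, and the part of depth in its nuclear share was not tested.

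Genes that assemble, feed or control the respiratory chain were taken from fixed lists of 60 genes, of which 59 were measured in naive-like progenitors. Past 1.2-fold were 8 of the 59 upward and 4 downward in the DKO library, smaller shares than the 15.2% and 12.1% of all genes, so the list as a whole did not stand above the background. Complex II had 0 of 4 past the fold. The upward genes included Slc25a5, an ADP/ATP carrier (240 and 361 CPM, 0.59), and Tmem70, an assembly factor of the ATP synthase (21.5 and 37.9 CPM, 0.82). Slc25a4, another ADP/ATP carrier, was at 671 and 690 CPM (0.04). Also upward were Cyc1, the heme-bearing cytochrome c1 of complex III (136 and 163 CPM, 0.27), and the complex IV assembly genes Cox17 and Cox20 (0.33 and 0.48). The others were Ssbp1 (133 and 161 CPM, 0.28) and, at low levels, Taco1 (4.37 and 5.5 CPM, 0.33, 0.00 to 0.66) and Tfb1m (2.7 and 3.92 CPM, 0.53, 0.13 to 0.94). The downward genes were Polrmt, the mitochondrial RNA polymerase (6.26 and 4.87 CPM, -0.36, -0.68 to -0.05), Tefm, its elongation factor (11.9 and 9.45 CPM, -0.33), Supv3l1, an RNA helicase (15 and 12.5 CPM, -0.27), and Pprc1, a coactivator (38.8 and 28.8 CPM, -0.43).

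In ganglion neuron-like cells 56 of the 60 were measured, and 8 were past the fold in each direction, a smaller share upward than the 22.2% of all genes and a share downward close to the 13.1%. The upward genes were Tmem70 (14.5 and 29.4 CPM, 1.02), the coactivator Ppargc1a (2.75 and 5.34 CPM, 0.96), the complex IV assembly genes Cox15 (0.68), Cox11 (0.54) and Cox20 (0.32), Polg2 (0.51), Atpaf2 (0.38) and Slirp (0.27). The downward ones were Supv3l1 (-0.60), Esrra (-0.48), Polg, the catalytic subunit of the mitochondrial DNA polymerase (-0.47), Fastkd2 (-0.46), Gabpa (-0.39), Tbrg4 (-0.36), Lrpprc, which stabilizes mitochondrial mRNAs (-0.31), and Mterf3 (-0.27). The intervals of Polg2 and Atpaf2 included 0, and that of Mterf3 ran from -0.54 to 0.00. Past the fold in the same direction in naive-like and ganglion neuron-like cells were Tmem70, Cox20 and Supv3l1.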

How the data were processed

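Eyecups of mouse embryos at E13.5 were profiled with 10x Genomics 3′ v3 chemistry, with 1 control and 1 DKO library. The authors mapped the reads to mm10 and counted UMIs per gene and cell with Cell Ranger 3.1.0, and the deposited files hold these raw counts. Because 3′ ends are counted, ratios were taken between cells for the same gene. Where genes were ranked, summed or set side by side by level, the values are counted UMIs. They were not corrected for differences in counting between genes.

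Cells were kept if they had over 200 and under 6000 genes, normalized and integrated in Seurat 5.3.0 (R 4.3.3) after the 97 genes had been removed, with 2000 variable genes, 20 dimensions and a resolution of 0.5, and cells with 20% or more mitochondrial UMIs were then left out. Clusters were named where at least 70% of the markers of a cell type were higher than elsewhere. This threshold was set after the clusters had been seen. Doublets were called with Scrublet in scanpy 1.11.5 and kept, 3.43% of control and 2.80% of DKO cells. The automatic score threshold was 0.638 for the control and 0.211 for the DKO library, and 0.211 was used for both, which sets the control doublet shares. Counts were pooled per cluster or group and library and divided by the total, in percent or CPM, with exact Poisson intervals for levels, exact binomial intervals for ratios and Clopper-Pearson intervals for shares of cells, computed in Python 3.11.15 with numpy 2.4.6, scipy 1.17.1 and pandas 2.3.3. A gene needed 100 UMIs over the 2 sides compared. Differences were counted past 1.2-fold between libraries and 2-fold between cell groups. The computation of ratios and their intervals was checked on Poisson counts simulated from naive-like levels with known folds. The other steps were not checked in this way, and variation between cells or embryos was not simulated. With 1 library per genotype no p-values were computed.

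The text names all mitochondrial members, the 3 nuclear members of each complex with the highest naive-like level, the 3 highest and 3 lowest ratios at 50 CPM or more of each comparison that has a paragraph of its own, paralogs, and pathway genes past the fold. A result that this rule selects is not reported here. Other members named were chosen after their values were seen. The members, lists and comparisons were chosen with earlier results of these data known. Alternatives were other resolutions, merging without integration, other totals, other cell filters, other folds and other thinning depths. Gene positions are those of GENCODE vM21 on GRCm38.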

Additional observations from a re-analysis of the deposited data

Results flagged for a closer look

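The mitochondrial share differed between the libraries in opposite directions in some clusters. In low-RNA cluster 14 it was higher in the DKO library by 0.65 on the log2 scale, and in cluster 15, the gamma crystallin cluster, by 0.23, while it was lower in naive-like progenitors (-0.26). With hemoglobin and crystallin UMIs left out of the totals, cluster 15 had 3.95% in the control and 3.76% in the DKO library. Ndufa1 was higher in DKO than control lens-like cells by 0.87 and lower in naive-like progenitors (-0.36). The lens-like cells of the libraries differed in depth, as given above. Whether these differences between cell groups exceed the variation between embryos was not tested.

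Cells with 20% or more mitochondrial UMIs were outside all comparisons. There were 111 in the control and 124 in the DKO library, with medians of 41.6% and 34.2% mitochondrial UMIs and of 1086 and 936 UMIs per cell. Nuclear members gave 0.824% and 0.898% of the UMIs of these cells.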

How the results depend on the processing

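No paired analysis was possible because there was 1 library of each genotype. In naive-like progenitors the log2 ratio of DKO over control of the mitochondrial share (-0.26) was -0.25 at resolution 0.3 and with the median over cells, and -0.28 at resolution 1 and with libraries merged without integration. For the nuclear share (0.16) it was 0.19 at resolution 1, 0.12 with merged libraries, 0.14 without mitochondrial UMIs in the total and also without mitochondrial, hemoglobin and crystallin UMIs, and 0.15 with the mean over cells. In cells of 8000 to 16000 UMIs, an alternative chosen after seeing the data, the mitochondrial and nuclear ratios were -0.25 and 0.17. The median nuclear member (0.17) was at 0.21 at resolution 1. The number of members past the fold, 19 at 1.2-fold, was 32 at resolution 1 and 2 at 1.5-fold. The share of low-RNA control cells with at most 1% mitochondrial UMIs (76.3%) was 70.9% without thinning. The median nuclear member of red cell-like over naive-like cells (-2.54) was -0.30 without mitochondrial, hemoglobin and crystallin UMIs in the total. For low-RNA cells as a whole the mitochondrial ratio of 0.37 turned to -0.01 at resolution 0.3 and to 0.00 with the members used for clustering. The cause of these changes was not tested. The lens-like mitochondrial ratio (-0.05) ran from -0.32 to -0.01, the ganglion neuron-like from -0.25 to -0.19, and that of the gamma crystallin cluster from -0.07 to 0.38.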
